A study of Homo sapiens with 18 samples.

Results

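The genes described here are 38 genes of the kinetochore and of mitosis, taken by symbol from a table of 26372 gene symbols. All 38 had a row in the table, and all 38 had a mean of at least 1 FPKM over the libraries (fragments scaled to transcript length and sequencing depth), so all were among the 13785 genes tested. The 18 RNA-seq libraries came from SH-SY5Y, an established human neuroblastoma line that can be driven to a neuron-like state. Every culture had been infected with a lentivirus built in the FUGW backbone, whose insert is driven by the ubiquitin C promoter, and carried ZNHIT3 as wild type (WT), with the substitution C14R, or with a deletion labelled ∆251-254. Replicates 2 and 3 of the deletion are labelled 251-255 and 251-256, and all are called the deletion here. Differentiation was sampled at its start (day 0) and at day 18, giving 6 groups of 3 libraries. Day 18 cells had been kept in serum-free neurobasal/B27 medium with 10 μM retinoic acid, 2 mM dibutyryl cyclic AMP, 20 mM KCl and 50 ng/ml of the neurotrophin BDNF, begun 48 hours after infection, whereas cells were maintained before that in 15% fetal bovine serum. No uninfected group was used, the cells keep their own ZNHIT3 gene, and the labels do not say whether replicates were separate infections, so p-values measure the spread between these libraries, which may be technical.

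The kinetochore is the protein assembly that ties a chromosome to the spindle. It is built on nucleosomes that contain the histone variant CENP-A, which the chaperone HJURP deposits. The constitutive centromere-associated network (CCAN) sits on this chromatin through the cell cycle, the NDC80 complex binds microtubules, and the checkpoint kinases and adaptors hold back the anaphase-promoting complex (APC/C) until chromosomes are attached. Many of these genes are transcribed mainly in G2 and M phase, and their transcripts are low in cells that have left the cell cycle. Promoters of such genes are known for CCAAT boxes, bound by NF-Y, and for the cell cycle gene homology region, a short element of the form TTTGAA or TTCGAA through which the MuvB-based complexes act.

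Because the genes fell together at day 18, their promoter sequences are shown first. RefSeq on GRCh38.p14 gave a window of 250 bases before to 50 bases after the start of 31 of the 38 genes. The 150 bases before the start are printed 5′ to 3′. The genes are those with the largest falls that had a window (CDC20 and CCNB2), PLK1, the CENP-A pair, and the gene with the smallest fall (CENPQ). PLK1 (log2 change in WT -1.80) was not next in rank, since CCNB1 (-1.84) and CENPF (-1.81) fell slightly more and are not printed. The CCNB1 window holds no TTTGAA or TTCGAA, and the CENPF window holds TTTGAA only at position 40, after the start. Capitals mark TTTGAA and CCAAT, the latter written ATTGG where it lies on the other strand.
CDC20: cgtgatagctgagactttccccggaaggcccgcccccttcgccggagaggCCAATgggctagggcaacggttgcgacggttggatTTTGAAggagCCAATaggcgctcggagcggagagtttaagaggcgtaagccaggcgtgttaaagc
CCNB2: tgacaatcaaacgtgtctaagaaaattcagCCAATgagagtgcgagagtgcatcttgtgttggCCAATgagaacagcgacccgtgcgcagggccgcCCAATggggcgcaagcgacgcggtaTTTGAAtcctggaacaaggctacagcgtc
PLK1: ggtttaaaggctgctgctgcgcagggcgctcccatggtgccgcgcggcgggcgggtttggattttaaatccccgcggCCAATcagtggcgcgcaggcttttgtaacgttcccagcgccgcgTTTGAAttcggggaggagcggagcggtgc
CENPA: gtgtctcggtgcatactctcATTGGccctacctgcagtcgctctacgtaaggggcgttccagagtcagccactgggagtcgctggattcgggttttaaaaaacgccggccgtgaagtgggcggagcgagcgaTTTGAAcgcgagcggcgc
HJURP: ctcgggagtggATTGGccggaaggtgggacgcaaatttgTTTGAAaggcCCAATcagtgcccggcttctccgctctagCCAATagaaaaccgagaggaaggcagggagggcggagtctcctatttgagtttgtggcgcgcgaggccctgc
CENPQ: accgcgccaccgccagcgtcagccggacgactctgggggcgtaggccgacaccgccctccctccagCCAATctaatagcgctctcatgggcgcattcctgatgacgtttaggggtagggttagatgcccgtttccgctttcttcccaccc
These stretches lie at chr1:43358831-43358980 (plus strand) for CDC20, chr15:59104996-59105145 (plus) for CCNB2, chr16:23678739-23678888 (plus) for PLK1, chr2:26785906-26786055 (plus) for CENPA, chr2:233854536-233854685 (minus) for HJURP and chr6:49463220-49463369 (plus) for CENPQ. In CCNB2 and PLK1 the TTTGAA starts at position -29 from the start site, and in CDC20 at -65. CCNB2 holds CCAAT at positions -120, -87 and -54 within the printed stretch, and CENPQ holds 1 CCAAT, at -84, and no TTTGAA.

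Over the whole windows, both strands searched, TTTGAA or TTCGAA was found in 20 of the 31 windows (64.5%), against 11.2% of the 10152 tested genes with a window and 16.6% of all 27305 windows. CCAAT was found in 23 of 31 (74.2%), against 36.9% and 35.7%. Matches can overlap, as in MKI67, where the TTTGAA at -29 runs into the CCAAT that starts at -24 on the other strand. Both kinds together were in 15 of 31 windows (48.4%), against 4.8% and 6.58%. A second list of mitosis genes with 68 windows had 57.4% with TTTGAA or TTCGAA and 61.8% with CCAAT. The median log2 change from day 0 to day 18 in WT was -1.38 for the 20 genes with TTTGAA or TTCGAA and -1.26 for the 11 with neither, with ranges that overlapped. It was -1.38 for the 23 genes with CCAAT and -1.18 for the 8 without, again with overlapping ranges. For the 14 genes with 2 or more CCAAT it was -1.61. Their range, -2.37 to -1.23, overlapped the -1.78 to -0.55 of the 8 genes without CCAAT. CENPI, CENPP and CENPE had none of the 3 motifs in this window, and their changes were -0.55, -0.68 and -1.16. The median of these 3, -0.68, is the value of CENPP alone. CENPP went from 1.60 to 0.62 FPKM in WT, a level at which log2(FPKM + 1) understates a change. Other genes also overlap 38% of its exonic bases. The CENPI window, chrX:101100808-101101107, lies inside the gene's GENCODE span, which begins at 101098218 on the plus strand. Any earlier start of CENPI was therefore not searched. Some other windows, such as those of CENPA and PLK1, also lie inside the gene span. A match is a description of the letters and was not tested as a site, and base composition was not matched between the sets.

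The targeted gene and the state of the cells were read from the same table. ZNHIT3, which cannot be split into construct and endogenous transcript here, had means of 538 FPKM in WT, 424 in C14R and 303 in the deletion at day 0 (n = 3 each). The day 18 means were 1153, 653 and 302 FPKM. The summed FPKM of 10 neuronal markers went from 922 to 964 over the 9 day 0 libraries to 2078 to 2293 at day 18. Of these markers 9 were tested, and all 9 were called higher in WT by limma, where 38.2% of all genes tested were. RBFOX3, a marker of mature neurons, stayed at or below 0.502 FPKM in every library. TH, the enzyme that begins catecholamine synthesis, was at most 1.02 FPKM, and SOX10, GFAP and PTPRC, which mark glial and immune cells, did not exceed 0.477, 0.293 and 0.166 FPKM. The sum of 10 markers of substrate-adherent or mesenchymal cells fell from 860 to 1113 at day 0 to 67.9 to 75.8 at day 18. All 8 tested markers were called lower in WT by limma, where 34.0% of all genes tested were. The small nucleolar RNA SNORD3A took 6.87% to 58.6% of a library's FPKM sum at day 0 and 1.01% to 15.1% at day 18. Relative depth, read from the steps of low FPKM values, was 59% to 84.7% of the deepest library at day 0 and 81.2% to 100% at day 18. These values are rough, since each is the most common ratio to a reference library among genes of low FPKM. That ratio was held by 53 of 594 genes in WT day 18 replicate 2 and by 154 of 561 in C14R day 0 replicate 3.

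At day 0 the levels of the 38 genes, which FPKM scales by transcript length, ran from 1.69 to 91.9 FPKM in the mean of the 9 libraries. TOP2A, the topoisomerase that untangles sister chromatids, was highest, with a range of 83.7 to 96.6 FPKM and a median of 92.8. CENPF, a large protein of the outer kinetochore corona, followed with 71.5 to 83.0 FPKM and a median of 81.5. CDK1, the kinase that drives entry into mitosis, came next with 49.1 to 58.1 FPKM and a median of 55.0. These ranges did not overlap, and TOP2A, CENPF, CDK1 and MKI67 held the first 4 ranks on both days. At the low end were the CCAN genes CENPI (mean 5.73 FPKM), CENPM (4.29) and CENPP (1.69). CENPM was scattered, with 5.34, 5.35 and 3.50 FPKM in WT at day 0, 4.42, 2.95 and 3.68 in C14R and 3.97, 3.28 and 6.08 in the deletion. CENPP read 1.37, 1.69 and 1.75 FPKM in the same WT libraries, and 38% of its exonic bases in GENCODE release 29 overlap other genes, chiefly IPPK.

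From day 0 to day 18 every one of the 38 genes fell in every line. In WT all 38 were called lower (limma, adjusted p under 0.05), where 34.0% of all genes tested were called lower, and in C14R and the deletion all 38 again, against 35.0% and 34.4%. The 3 libraries of day 18 lay below the 3 of day 0 for all 38 genes in each line, against 36.0%, 34.5% and 36.8% of all genes. The summed FPKM of the 38 genes went from 906 ± 9.1 to 313 ± 8.24 in WT (SD, n = 3), from 910 ± 12.5 to 357 ± 38.9 in C14R, and from 853 ± 13.2 to 326 ± 7.85 in the deletion. Thus 34.6%, 39.3% and 38.3% of the day 0 sum was left. The median log2 change was -1.34 in WT, -1.17 in C14R and -1.16 in the deletion, beside 0.03, 0.02 and 0.03 over all genes tested. A fall of at least 1 on the log2 scale was called for 33 genes in WT and for 28 in each variant line (6.79%, 6.64% and 6.74% of all genes). Leaving out small RNA genes and rescaling the libraries moved the median of all genes in this comparison by about 0.2, to 0.21, 0.18 and 0.23, and brought those counts to 26, 20 and 17, with all 38 genes still called lower. The libraries are of bulk RNA, so fewer dividing cells and less RNA per dividing cell cannot be told apart.

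**Figure D1:**
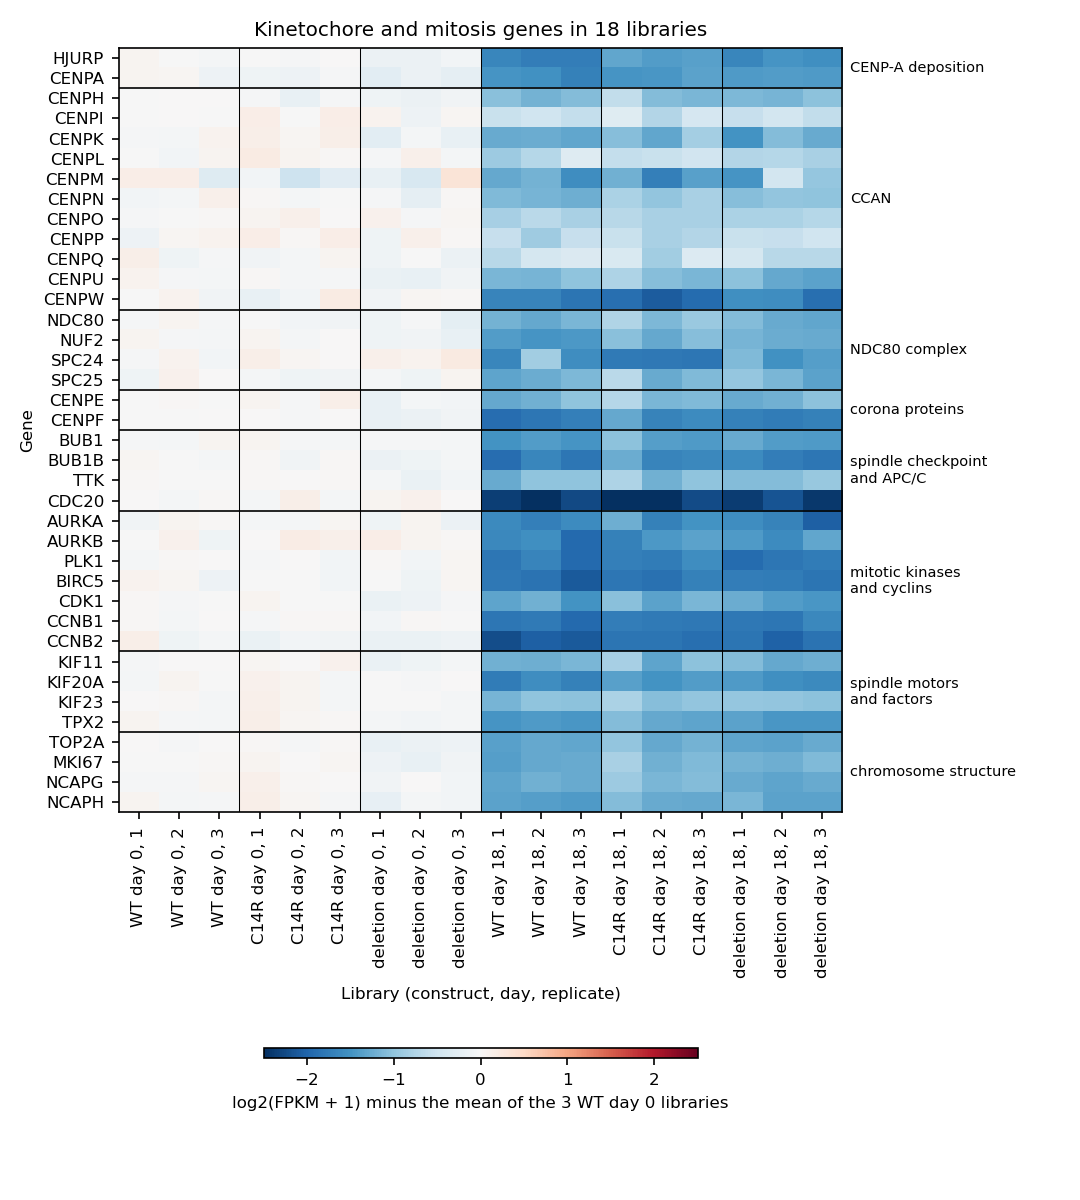
Each cell gives the log2(FPKM + 1) of a gene (rows, grouped by role) in a library (columns, by construct, day and replicate) minus the mean of the 3 WT day 0 libraries. The 9 day 18 columns are blue for all 38 genes, deepest for CDC20 and palest for CCAN genes such as CENPQ and CENPI, and C14R day 18 replicate 1 is paler than its neighbours.

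The CENP-A pair fell by similar amounts. HJURP, the chaperone that loads CENP-A, fell in WT from 12.8, 12.1 and 11.7 FPKM to 3.24, 2.94 and 2.95, so 25.0% of its level was left (log2 change -1.70, SE 0.06, adjusted p = 4.4e-14 by limma). CENPA, the centromeric histone itself, fell from 21.9, 21.6 and 19.1 FPKM to 6.83, 6.67 and 5.78, leaving 30.8%. The days did not overlap for either gene.

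In WT the CCAN held the smallest falls and the widest range of percent left of any role. Its 11 genes left a median of 44.4% of their day 0 level in WT, with a range of 25.1% to 67.1%, and 6 of the 11 passed a log2 fall of 1. CENPQ fell least, from 8.64, 7.12 and 7.51 FPKM to 4.38, 5.42 and 5.81 (log2 change -0.50, SE 0.12, adjusted p = 0.00169 by limma). CENPI fell from 5.51, 5.63 and 5.51 FPKM to 3.46, 3.62 and 3.36 (-0.55, SE 0.09), and CENPL from 7.37, 7.03 and 7.72 to 3.47, 4.12 and 5.65 (-0.65, SE 0.11). All 3 encode subunits of the network, and for each the days stayed apart, although WT day 18 replicate 3 of CENPL stood above its other 2 libraries. The CENPL change was -0.81 without that library. CENPW, which pairs with CENPT in a histone-fold complex, kept the least of the 11, from 12.6, 13.4 and 11.9 FPKM to 3.34, 3.34 and 2.84, or 25.1% left. CENPM, at a lower and more scattered level, also fell far in WT, from a mean of 4.73 to 1.25 FPKM. In C14R and in the deletion 3 of the 11 CCAN genes passed a log2 fall of 1, and CENPQ again kept the most of the 38 genes, at 67.5% and 65.6%. For CENPO and CENPP, 27% and 38% of exonic bases overlap other genes, and strand use in counting is not given in the sources used here.

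The 4 subunits of the NDC80 complex, the main microtubule coupler, left between 35.0% and 39.9% in WT. NUF2 went from 34.2, 32.0 and 31.5 FPKM to 11.7, 11.1 and 11.4 (log2 change -1.44, SE 0.06). SPC24 fell from 11.1, 12.2 and 10.8 FPKM to 2.99, 5.79 and 3.18, and 1 of its day 18 libraries, replicate 2, stood well above the others. Among the corona proteins, CENPF fell from 81.5, 81.6 and 83.0 FPKM to 21.1, 22.9 and 24.3, leaving 27.8%, while CENPE, a plus-end directed motor, left 40.2%.

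In WT the 3 largest falls were of CDC20, CCNB2 and BIRC5, in the checkpoint and kinase groups. In C14R they were of CDC20, the CCAN gene CENPW (log2 change -1.95) and the NDC80 complex gene SPC24 (-1.86), and in the deletion of CDC20, PLK1 (-1.83) and CCNB2 (-1.75). CDC20, the activator of the APC/C, fell in WT from 25.6, 24.6 and 25.8 FPKM to 4.17, 3.60 and 4.53 (16.2% left, log2 change -2.37, SE 0.10, adjusted p = 4.93e-13 by limma). It kept the least of all 38 genes in each line, at 14.5% in C14R and 16.2% in the deletion, and went from rank 12 of 38 by level at day 0 to rank 31 at day 18. CCNB2, a mitotic B-type cyclin, fell from 36.0, 30.0 and 31.1 FPKM to 6.14, 7.05 and 6.77 (20.5% left, log2 change -2.12, SE 0.07). BIRC5, the survivin subunit of the chromosomal passenger complex, fell from 34.2, 33.2 and 29.6 FPKM to 8.68, 8.23 and 6.81 (24.4% left). In none of these 3 genes did the days overlap. The 7 genes of the kinase and cyclin group, with PLK1, AURKA, AURKB, CCNB1 and CDK1, left a median of 26.1% in WT, and CDK1 kept the most of them at 38.8%. The checkpoint kinases BUB1 and TTK left 32.9% and 43.7%, and the checkpoint protein BUB1B left 26.4%.

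Spindle motors and chromosome proteins lay in between. KIF20A, a motor of cytokinesis, left 27.7%, and KIF23, KIF11 and the spindle assembly factor TPX2 left 44.8%, 41.8% and 35.3%. TOP2A went from 96.2, 92.8 and 96.1 FPKM to 36.4, 38.6 and 38.1 in WT, and MKI67, the Ki-67 protein that coats mitotic chromosomes, from 49.4, 49.5 and 50.5 to 18.5, 19.9 and 20.3. The condensin subunits NCAPG and NCAPH left 37.9% and 31.2%. For NCAPG 33.1% of exonic bases overlap another gene, LCORL. Across the 38 genes the log2 change in WT had a Pearson r of -0.50 and a Spearman rho of -0.47 with the log2 level at day 0; these points share the day 0 libraries and the pseudocount. The changes in WT and C14R had an r of 0.91, and those in WT and the deletion 0.95, over the same 38 genes and with no library in common.

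**Figure D2:**
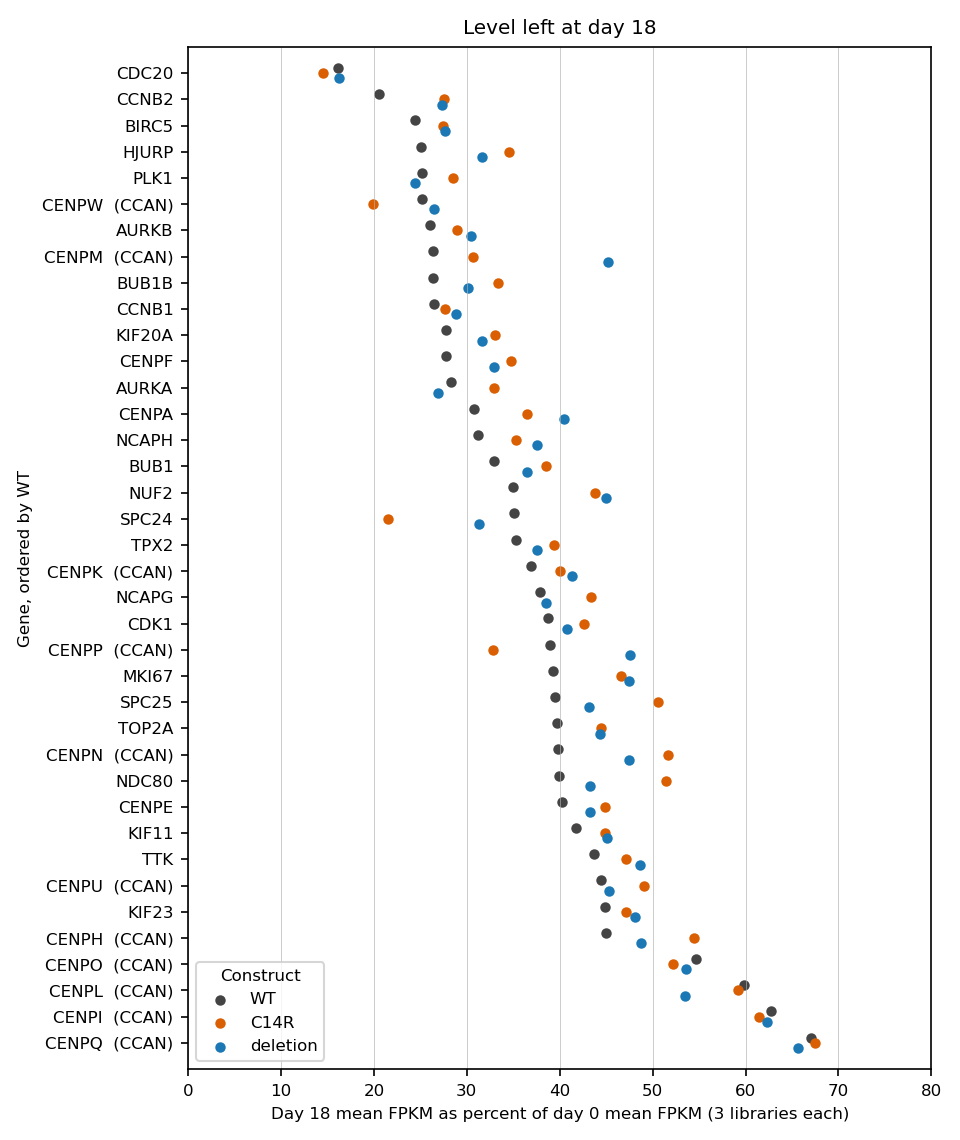
Points give the day 18 mean FPKM as a percent of the day 0 mean (x axis) for each gene (y axis, ordered by WT) in WT, C14R and deletion cells. CDC20 keeps 14.5% to 16.2% and CENPQ 65.6% to 67.5%, and the CCAN genes CENPO, CENPL, CENPI and CENPQ fill the lower right end.

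Other genes of mitosis, 79 symbols of which 77 were in the table and tested, fell less uniformly. In WT 67 were called lower, where 34.0% of all genes were, and 3 higher, where 38.2% were; 7 did not pass, and the median log2 change was -0.97. UBE2C, the ubiquitin-conjugating enzyme of the APC/C, fell from 77.2 ± 0.937 to 19.2 ± 1.36 FPKM (SD, n = 3; log2 change -1.96), ZWINT, an outer kinetochore protein, from 19.9 ± 0.199 to 5.12 ± 0.156 (-1.77), and the kinesin KIF18B from 8.17 ± 0.155 to 1.70 ± 0.212 (-1.77). The 3 that rose were NSL1 of the MIS12 complex (10.0 ± 0.204 to 12.7 ± 0.248 FPKM), the APC/C activator FZR1 (6.49 ± 0.267 to 8.21 ± 0.274) and the APC/C subunit CDC27 (34.7 ± 1.03 to 39.3 ± 1.3). FZR1 works in G1 and in cells outside the cycle, whereas CDC20 works in mitosis. Their log2 changes in WT were 0.30 (SE 0.12, adjusted p = 0.0284 by limma) and -2.37. None of the 77 was called in a comparison of a variant with WT or in an interaction by limma; at an unadjusted p under 0.05, 19 were higher (5.36% of all genes) and 0 lower (5.77%) in C14R at day 18. In the deletion 10 were higher (5.77%) and OIP5 and ECT2 were lower (5.67%) at day 18, and ZWINT, STAG1 and CIT were lower at day 0 (3.06%).

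At day 18 the 38 genes stood somewhat higher in C14R than in WT, but only HJURP passed the test. HJURP was at 4.34, 4.03 and 4.14 FPKM in C14R and at 3.24, 2.94 and 2.95 in WT, a log2 difference of 0.35 (SE 0.06, adjusted p = 0.0315 by limma), and the lowest C14R library was above the highest WT library. It was 1 of 38, where 0.0145% of all genes were called higher. That call was lost when the fit held no more than these 6 libraries (adjusted p = 0.93) and without WT replicate 2 (0.157), WT replicate 3 (0.128), C14R replicate 1 (0.0733) or C14R replicate 3 (0.0809). The exact permutation test of 3 against 3 libraries gave p = 0.1, the smallest its 20 relabelings allow. The gene lies at chr2:233833416-233854566 on the minus strand.

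The next genes missed the threshold. NUF2 was at 15.4, 12.9 and 15.0 FPKM in C14R and 11.7, 11.1 and 11.4 in WT (log2 difference 0.31, SE 0.06, adjusted p = 0.104 by limma), and CENPF at 33.4, 25.2 and 26.8 against 21.1, 22.9 and 24.3 (0.30, SE 0.07, adjusted p = 0.134). Neither overlapped between the groups. Of the 38 genes 32 had a higher mean in C14R (49.1% of all genes did), 14 were higher at an unadjusted p under 0.05 (5.36%) and 2 lower, SPC24 and CENPW (5.77%), and the median difference was 0.16 beside 0.00 for all genes. For 12 genes all C14R libraries lay above all WT libraries (5.44% of all genes): HJURP, CENPA, CENPN, NDC80, NUF2, CENPF, CCNB2, KIF20A, TPX2, MKI67, NCAPG and NCAPH. In 2 genes all lay below (5.64%). SPC24 read 2.62, 2.60 and 2.53 FPKM against 2.99, 5.79 and 3.18 in WT (-0.44, SE 0.15, adjusted p = 0.257), and CENPW 2.68, 2.24 and 2.58 against 3.34, 3.34 and 2.84 (-0.25, SE 0.10, adjusted p = 0.376). SPC24 is thus opposite in sign to its NDC80 complex partners NDC80, NUF2 and SPC25, whose differences were 0.27, 0.31 and 0.22.

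The C14R libraries of day 18 were uneven among themselves. Replicate 1 was the highest of its group for 30 of the 38 genes and replicate 2 the lowest for 25, and their summed levels were 399 and 322 FPKM, with 351 for replicate 3. WT at day 18 summed to 305, 321 and 313 FPKM. Without replicate 1 the median difference from WT was 0.08, 27 genes were higher, 13 were separated upward (13.2% of all genes) and 0 were called. Without replicate 2 the median was 0.23, 35 were higher, 22 were separated upward (10.9%) and 6 were called higher, namely HJURP, CENPN, NDC80, NUF2, CENPF and MKI67, against 0.522% of all genes. Replicate 1 also had the lowest FPKM sum, at 553539, and the lowest share of SNORD3A, 1.01%. The neuronal marker sum was 2160 to 2293 in C14R and 2078 to 2108 in WT, with 7 of 9 tested markers higher in mean and none called. Of 9 tested sympathetic markers 5 were higher at an unadjusted p under 0.05 (5.36% of all genes), 4 of them fully separated (5.44%). The other 4 markers were lower in mean, and none of the 9 was called by limma. The substrate-adherent sum was 72.5 to 75.8 against 69.1 to 71.6, but 4 of the 8 tested markers were higher in mean and 4 lower, with a median difference of -0.02, and VIM, the intermediate filament vimentin, had means of 54.1 and 49.3 FPKM. Fibroblast-like and immune markers summed to 69.8 to 79.5 in C14R and 76.0 to 77.9 in WT. Of these, DCN, LUM and CD68, 3 of 4 tested, were lower at an unadjusted p under 0.05 (5.77% of all genes). The median of the 4 was -0.24, and none was called. The part of these markers in the differences was not tested.

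**Figure D3:**
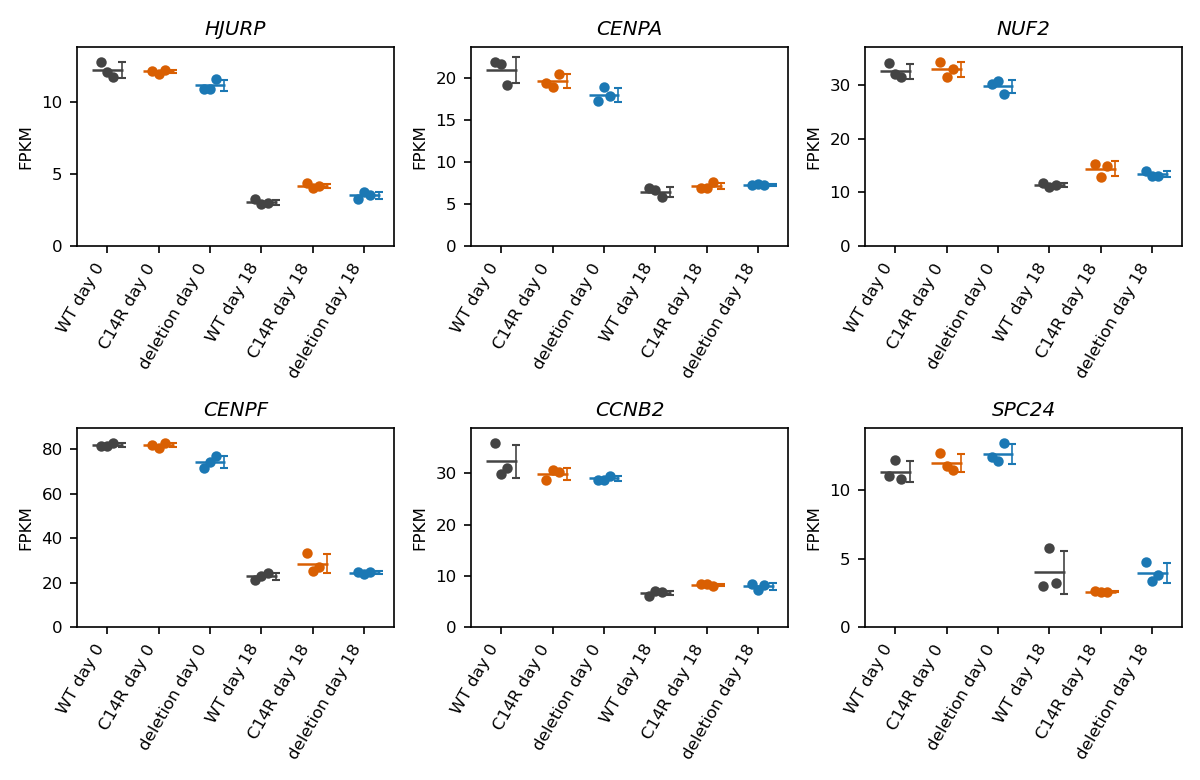
FPKM (y axis, from 0) of 6 genes by construct and day; points are libraries, horizontal lines group means and bars the SD of 3 libraries. At day 18 all C14R points of HJURP, CENPA, NUF2, CENPF and CCNB2 lie above all WT points, and for SPC24 all lie below.

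In deletion cells at day 18 none of the 38 genes was called against WT by limma (0.0725% of all genes were), and 6 were higher at an unadjusted p under 0.05, where 5.77% of all genes were, and 0 lower (5.67%). The means of 26 genes were higher (51.8% of all genes), with a median difference of 0.05 beside 0.00. NUF2 read 14.01, 13.1 and 13.0 FPKM against 11.7, 11.1 and 11.4 in WT (log2 difference 0.22, SE 0.06, adjusted p = 0.201 by limma). CCNB2 read 8.42, 7.16 and 8.22 against 6.14, 7.05 and 6.77 (0.22, SE 0.07, adjusted p = 0.25), and HJURP 3.26, 3.76 and 3.54 against 3.24, 2.94 and 2.95 (0.16, SE 0.06, adjusted p = 0.308). The groups were apart in all 3, though by a narrow gap for HJURP and CCNB2. In 7 genes all deletion libraries lay above all WT libraries (10.4% of all genes), namely HJURP, CENPA, CENPN, NUF2, CCNB2, MKI67 and NCAPH, and in 0 all lay below (8.53%). The comparisons of C14R and of the deletion with WT use the same WT libraries. The neuronal marker sum was 2168 to 2234 in the deletion, above the WT range, with 8 of 9 tested markers higher in mean and none called by limma. At an unadjusted p under 0.05, 4 of 9 sympathetic markers were higher (5.77% of all genes), with 7 of the 9 higher in mean and 2 lower. By the same rule DCN, LUM and CD68, 3 of 4 fibroblast-like and immune markers, were lower (5.67%). The median of the 4 was -0.31, and the sum of that list was 71.9 to 73.9. No marker of either list was called. The substrate-adherent sum, 67.9 to 71.6, overlapped that of WT, with 3 of 8 tested markers higher in mean and 5 lower. Their part was not tested. Between the variants at day 18, 28 of the 38 genes were higher in C14R (48.8% of all genes), 6 of them fully separated (5.94%) and 1 separated downward (SPC24; 6.23%), with a median of 0.12 and 0 called by limma (0.0290%), 12 being higher at an unadjusted p under 0.05 (5.04%). That median was 0.03 without C14R replicate 1 and 0.20 without replicate 2.

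At day 0 the deletion stood slightly lower. TOP2A was at 83.7, 86.1 and 87.0 FPKM in the deletion and at 96.2, 92.8 and 96.1 in WT (log2 difference -0.15, SE 0.06, adjusted p = 0.773 by limma). CENPA was at 17.2, 18.9 and 17.8 FPKM against 21.9, 21.6 and 19.1 (-0.21, SE 0.06, adjusted p = 0.759), the smallest adjusted p of the 38. Both genes were fully apart between the groups without passing the test. The means of 30 genes were lower and of 8 higher (49.5% of all genes higher), 15 of them with all libraries below all WT libraries (9.28% of all genes; 0 lay above, against 8.68%), 4 were lower at an unadjusted p under 0.05 (3.06%), none was called by limma (0.0290% of all genes were), and the median was -0.08. The substrate-adherent marker sum was higher in the deletion, 1019 to 1113 against 922 to 967 in WT and 860 to 926 in C14R. Of its 8 tested markers 6 were higher in mean and 0 were called by limma. The neuronal marker sum was lower, 922 to 943 in the deletion against 949 to 958 in WT. Of 9 tested neuronal markers 8 were lower in mean, 3 of them fully separated (9.28% of all genes), and 1 was higher and fully separated (8.68%). Of 9 sympathetic markers 6 were lower in mean and 3 higher. None of these markers was called, and their part in the difference was not tested.

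C14R at day 0 was close to WT: 21 genes had a higher mean and 17 a lower one (48.3% of all genes higher), KIF11 was fully separated upward (4.14% of all genes) and CENPH downward (5.33%), the median was 0.01, and none was called by limma (0.00% of all genes) or passed an unadjusted p under 0.05 (1.30% of all genes upward and 1.52% downward). With small RNA genes left out the split was 29 higher and 9 lower, with a median of 0.03. Against the deletion, with which it shares no library, C14R at day 0 was higher in 31 of 38 genes (49.9% of all genes), fully separated upward in 14 (10.5%) and downward in 0 (10.7%), with a median of 0.08 and 0 called by limma (0.0580%), 5 being higher at an unadjusted p under 0.05 (4.69%) and 0 lower (5.15%). All 8 tested substrate-adherent markers were lower in C14R in this comparison, with a median of -0.19, 5 of them fully separated. VIM was called, at 540 ± 19.7 FPKM in C14R and 627 ± 21.3 in the deletion (SD, n = 3; log2 difference -0.22, adjusted p = 0.0403 by limma). Of the neuronal markers 7 of 9 and of the sympathetic markers 8 of 9 were higher in mean, none called, and the part of these markers was not tested.

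**Figure D4:**
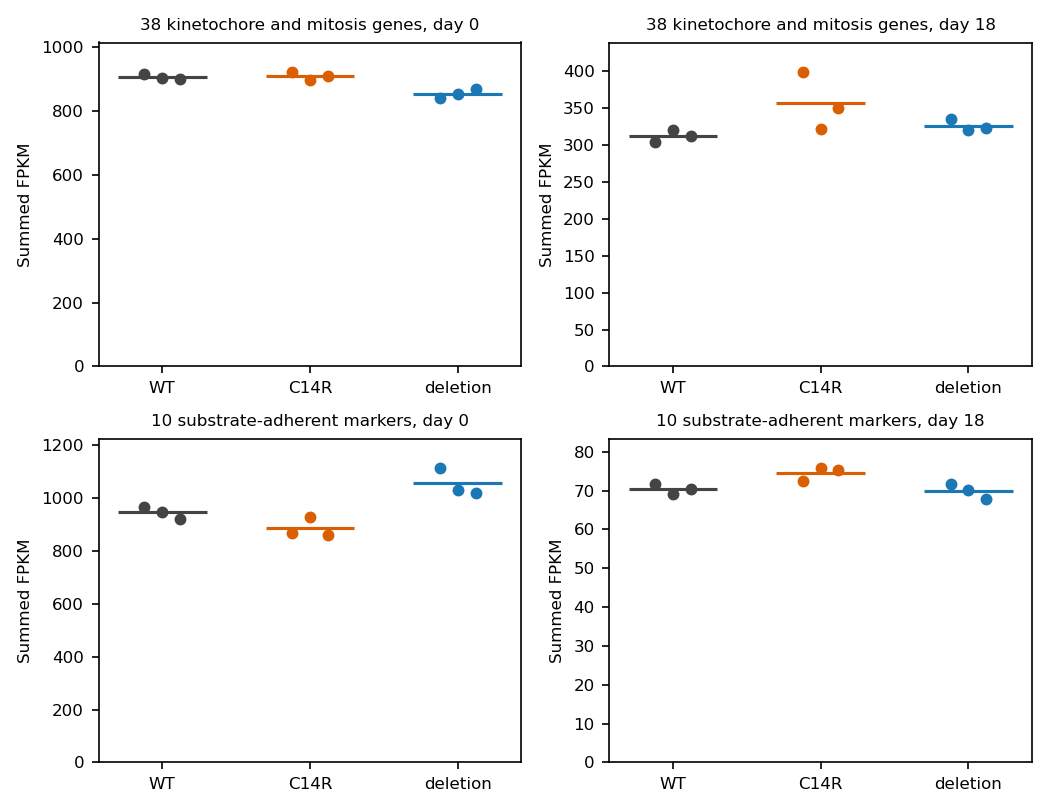
Summed FPKM (y axes, each from 0) of the 38 genes (top) and of 10 substrate-adherent markers (bottom) by construct at day 0 (left) and day 18 (right); points are libraries and lines means. At day 0 the deletion is lowest for the 38 genes (841 to 867) and highest for the markers (1019 to 1113), and at day 18 C14R replicate 1 is the highest point for the 38 genes (399).

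The fall from day 0 to day 18 was smaller in both variants than in WT in the median of the 38 genes, but no gene of the 38 passed the test of that difference (0.00% of all genes passed for C14R and 0.0145% for the deletion). The interaction of C14R with day was above 0 for 31 of the 38 genes (49.7% of all genes), with a median of 0.15, and 10 passed an unadjusted p under 0.05 upward (2.99%), led by HJURP (0.36, SE 0.08, adjusted p = 0.409 by limma). That median was 0.07 without C14R day 18 replicate 1 and 0.20 without replicate 2. For the deletion it was above 0 for 30 genes (52.7%), with a median of 0.11, and 6 passed an unadjusted p under 0.05 (3.50%), led by NUF2 (0.34, SE 0.08) and CENPA (0.36, SE 0.09), both with an adjusted p of 0.305. In 6 genes, CCNB2, CENPA, HJURP, MKI67, NCAPH and NUF2, all deletion libraries lay below all WT libraries at day 0 and above them at day 18, where 0.646% of all genes did; their interactions ran from 0.21 to 0.37 with adjusted p from 0.305 to 0.723 by limma. No gene did so in C14R, where 0.247% of all genes did. In the same interactions 6 of 9 neuronal and 6 of 8 substrate-adherent markers were above 0 for C14R, and 8 of 9 and 2 of 8 for the deletion, with none called by limma; their part was not tested. Both interactions use the same WT libraries.

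**Figure D5:**
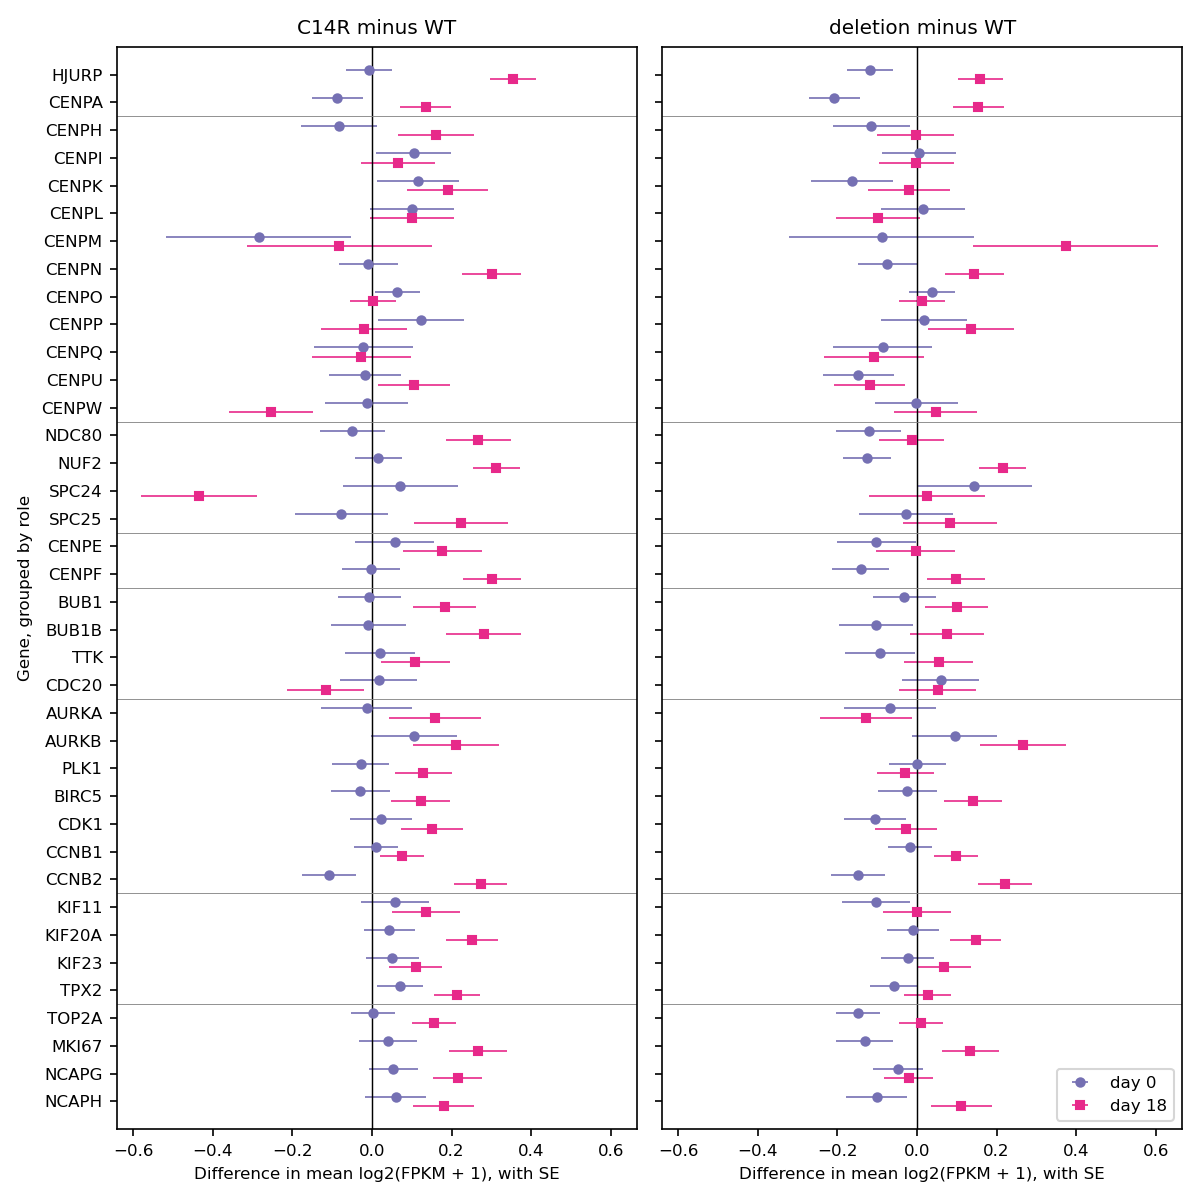
Difference from WT in mean log2(FPKM + 1) (x axis) with its standard error for each gene (y axis, grouped by role) at day 0 (circles) and day 18 (squares), for C14R (left) and the deletion (right). Most day 18 squares of C14R lie right of 0 with SPC24 and CENPW to the left, and in the deletion most day 0 circles lie left of 0.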

How the data were processed

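RNA-seq was made from TRIzol RNA after DNase I treatment, Ribo-Zero depletion and NEBNext Ultra library preparation, per the labels' protocols. The authors deposited FPKM values, 1 column per library and 1 row per gene symbol. The submitters' processing notes name hg38, TopHat2, STAR and Cufflinks 2.2.1, without role or order; annotation and strand are not given in the sources used here. Absolute depth is unknown, so no counting interval is given.

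Genes with a mean of at least 1 FPKM were tested on log2(FPKM + 1) with limma 3.58.1 in R 4.3.3: a group-means model over 18 libraries, a variance trend, and Benjamini-Hochberg adjustment over 13785 genes per comparison, threshold 0.05. This scale understates changes of low genes. The code was tested on simulated data. The 38 genes, the other lists, motifs and tests were chosen with earlier results of these data known, so no list was tested as a set. Gene positions and exon overlaps are from GENCODE release 29 (GRCh38), promoters from RefSeq (GRCh38.p14), taking the first listed window of a gene. By rule, values by library were given for HJURP, called genes, the 3 largest and smallest falls in WT, the 3 highest and lowest levels, and the 3 smallest p-values of each variant against WT at day 18. Other genes, such as SPC24, CENPW and CENPA, were chosen after their values were seen. Alternatives were other pseudocounts, filters, scalings, weights and fits, a replicate block, and each library left out. Counts of separated genes without each library were added after seeing the data.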

Additional observations from a re-analysis of the deposited data

How the results depend on the processing

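All 38 genes were called lower at day 18 in each line with any 1 library left out and under 9 of 11 other settings. The exceptions were a mean of at least 5 FPKM, where 35 genes were tested and all 35 called, and a log2 fall of at least 1, where 33, 28 and 28 passed. The median changes moved with the pseudocount and the scaling. With a pseudocount of 0.1 they were -1.46 in WT, -1.33 in C14R and -1.28 in the deletion, and with small RNA genes left out -1.15, -1.02 and -0.96. Leaving out single libraries gave -1.39 to -1.30 in WT and -1.25 to -1.08 in C14R.

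For C14R against WT at day 18, 5 genes were called with array weights (HJURP, CENPN, NUF2 and CENPF higher, SPC24 lower). Calls also rose over the whole table, as array weights called 1.49% of all genes tested. The share called higher was 0.747% of all genes, against 0.0145% in the main fit. The count was 0 with only the compared libraries or with a log2 difference of at least 1. With 1 library left out the count ran from 0 to 6 and the median from 0.0806 to 0.23. The cause was not tested. For C14R against the deletion at day 18 the median ran from 0.0318 to 0.20, and for the C14R interaction from 0.0699 to 0.20, with 0.0936 under array weights. CENPI had no value at a mean of at least 5 FPKM. Of the medians and single-gene differences recomputed, none reversed in direction. By the rule used, a median had to exceed the SD between replicates, 0.0517, to count as reversed. The C14R against WT median at day 0, 0.0134, could therefore not count. With 1 library left out that median ran from 0.0085 to 0.026.

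The replicate numbers did not pair the libraries: of 45 same-numbered pairs 6 correlated above 0.1, the median was -0.01, and 2 of 18 libraries correlated best with their own number. With the replicate block the count for C14R against WT at day 18 was again 1, but for NUF2 (adjusted p = 0.0456 by limma) and not HJURP (0.0536).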
